A study of Arabidopsis thaliana with 9 samples.

Results

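The iron deficiency regulators and reductases are 10 genes of Arabidopsis thaliana, chosen by name from the 29420 genes of a count table, with earlier results of the same data, among them differences between the genotypes, known. They are the subgroup Ib bHLH factors bHLH38 (AT3G56970), bHLH39 (AT3G56980), bHLH100 (AT2G41240) and bHLH101 (AT5G04150), the bHLH factors FIT (AT2G28160) and PYE (AT3G47640), the ubiquitin ligase gene BTS (AT3G18290), the peptide gene IMA1 (AT1G47400), and the ferric reductase genes FRO2 (AT1G01580) and FRO3 (AT1G23020). Their values are therefore given as a description: which of them passed the threshold over all genes is stated as a count, with no p, and supports nothing. Tests with adjusted p-values are given for other iron genes, a list also drawn up with those results known, so these are no independent evidence. PolyA RNA was sequenced from whole seedlings in 9 libraries, 3 biological replicates each of the wild type (WT, Columbia ecotype), the hda9-1 mutant of the histone deacetylase gene HDA9 and the pwr-2 mutant of POWERDRESS (PWR), which encodes a SANT domain protein. All seedlings were 10 days old and had grown on MS agar at 23 °C in long days with 16 h of light, with no iron treatment in the labels. Each mutant is represented by 1 allele. The series title states that both proteins interact in the deacetylation of histone H3, and the study thus asks how transcripts change when either protein is disrupted.

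Plants other than grasses take up iron by reducing it at the root surface, where FRO2 converts ferric to ferrous iron and the transporter IRT1 carries it into the cell. FIT, a factor of the root epidermis, activates both genes together with a subgroup Ib partner, and the subgroup Ib genes are themselves switched on by the bHLH factors ILR3, bHLH34, bHLH104, bHLH115 and URI when iron is short. BTS marks some of these upstream factors for breakdown, PYE represses genes of iron transport and storage, and IMA peptides carry the iron deficiency signal. FRO3 acts at the mitochondrion and is a common marker of iron deficiency in shoots and roots.

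Total counts per library ran from 6450661 to 11150773, and 22039 to 23338 genes had a count. Replicate 3 of hda9-1 was the smallest library and lay farthest from a library of its own group, with a chi-square per degree of freedom of 4.91 against replicate 1, compared with 1.61 to 3.13 for the other pairs of replicates. In the check of the targeted genes, HDA9 was lower in hda9-1 than in WT by a log2 fold change of -2.42 (SE 0.09), and PWR was lower in pwr-2 by -1.53 (SE 0.09). Each mutant also differed from WT in the other gene. HDA9 had -0.23 (SE 0.07, edgeR adjusted p = 0.033) in pwr-2, and PWR had 0.44 (SE 0.08, adjusted p = 0.0015) in hda9-1.

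The 4 subgroup Ib genes lie on 3 chromosomes, and bHLH38 and bHLH39 are neighbours on the same strand with 1144 bases between them. In TAIR10.1, bHLH38 spans chr3:21084035-21085245, bHLH39 chr3:21086390-21087710, bHLH100 chr2:17198037-17199454 and bHLH101 chr5:1138410-1139633, all on the minus strand. FRO3 lies at chr1:8149868-8153796, also on the minus strand, and on the plus strand are FIT at chr2:12004658-12006276, PYE at chr3:17567126-17569394, BTS at chr3:6273966-6280562, IMA1 at chr1:17385707-17386485 and FRO2 at chr1:208995-213082. The stretches upstream of the subgroup Ib genes are shown because the genes moved together, and those of BTS and FIT because BTS was higher and FIT lower in both mutants. Among the genes not shown, FRO3 was also higher in both mutants, and its window is described below. Each is the 250 bases before the annotated gene start, read 5′ to 3′ on the gene's strand from the RefSeq annotation of assembly TAIR10.1. Capitals mark the G-box CACGTG, a palindrome that bHLH factors can bind and a special case of the E-box CANNTG.
bHLH38: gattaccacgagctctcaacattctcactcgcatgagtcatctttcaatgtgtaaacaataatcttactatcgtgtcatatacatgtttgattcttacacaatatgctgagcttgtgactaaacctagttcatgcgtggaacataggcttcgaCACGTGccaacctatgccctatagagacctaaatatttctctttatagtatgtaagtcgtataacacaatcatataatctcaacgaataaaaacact
bHLH39: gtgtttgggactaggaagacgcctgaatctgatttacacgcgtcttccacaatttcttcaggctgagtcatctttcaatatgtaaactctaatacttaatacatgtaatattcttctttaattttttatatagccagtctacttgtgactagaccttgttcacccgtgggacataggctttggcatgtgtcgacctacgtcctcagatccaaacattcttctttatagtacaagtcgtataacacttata
bHLH100: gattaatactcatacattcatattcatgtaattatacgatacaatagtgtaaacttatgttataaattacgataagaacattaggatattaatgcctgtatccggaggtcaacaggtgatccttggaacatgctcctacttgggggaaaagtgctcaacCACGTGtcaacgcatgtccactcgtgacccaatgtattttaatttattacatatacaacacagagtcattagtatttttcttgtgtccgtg
bHLH101: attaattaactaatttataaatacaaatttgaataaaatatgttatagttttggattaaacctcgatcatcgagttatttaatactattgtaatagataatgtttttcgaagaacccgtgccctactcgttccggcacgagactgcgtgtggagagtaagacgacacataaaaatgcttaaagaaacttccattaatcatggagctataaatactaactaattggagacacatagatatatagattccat
BTS: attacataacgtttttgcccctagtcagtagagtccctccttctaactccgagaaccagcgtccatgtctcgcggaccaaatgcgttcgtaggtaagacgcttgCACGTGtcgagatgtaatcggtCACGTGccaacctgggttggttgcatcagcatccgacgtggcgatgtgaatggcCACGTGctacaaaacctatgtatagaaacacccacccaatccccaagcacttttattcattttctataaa
FIT: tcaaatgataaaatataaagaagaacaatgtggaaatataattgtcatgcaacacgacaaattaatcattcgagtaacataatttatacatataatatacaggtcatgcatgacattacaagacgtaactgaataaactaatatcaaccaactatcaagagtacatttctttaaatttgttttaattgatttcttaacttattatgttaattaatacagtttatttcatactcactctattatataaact
The windows were bHLH38 at chr3:21085246-21085495 (minus strand), bHLH39 at chr3:21087711-21087960 (minus), bHLH100 at chr2:17199455-17199704 (minus), bHLH101 at chr5:1139634-1139883 (minus), BTS at chr3:6273716-6273965 (plus) and FIT at chr2:12004408-12004657 (plus).

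The G-box stood in the windows of 3 of the 10 genes. It occurred once before bHLH38, 97 bases upstream of the start, once before bHLH100, 91 bases upstream, and at 3 places before BTS, 146, 124 and 70 bases upstream. Among 27443 upstream windows of the same length of protein-coding genes, 6.5% held at least 1 G-box, and 27 windows, 0.098%, held 3 or more. Any E-box, the G-box included, was found in 6 of the 10 windows and in 55.3% of all. The windows of bHLH101, PYE, FRO2 and FRO3 held neither. The longest run of bases shared by any pair of the subgroup Ib windows was tgagtcatctttcaat, 16 bases long. It begins 217 bases upstream of bHLH38 and 187 bases upstream of bHLH39. A match is a run of letters and was not tested as a binding site.

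**Figure D1:**
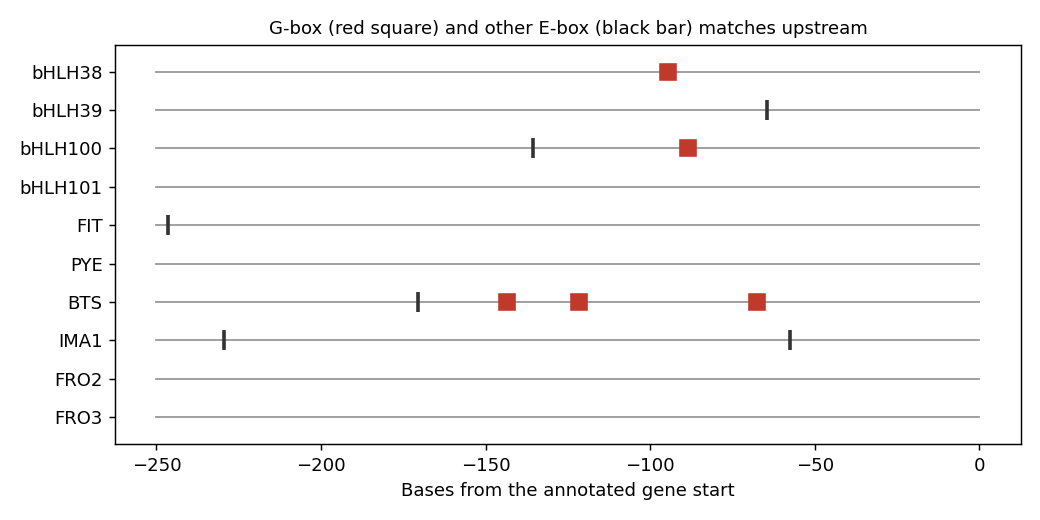
Matches to the G-box (red squares) and to other E-boxes (black bars) in the 250 bases before the annotated start of each of the 10 genes, plotted by distance from the start in bases. BTS carries 3 G-boxes, bHLH38 and bHLH100 carry 1 each, and the lines of bHLH101, PYE, FRO2 and FRO3 are bare.

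The subgroup Ib genes were several times higher in hda9-1 than in WT, and higher to a smaller extent in pwr-2. Their summed level was 15.4, 24.1 and 28.6 CPM (each count scaled by the size of its library) in the 3 WT libraries, against 79.8, 77.1 and 85.4 in hda9-1 libraries and 34.2, 39.8 and 39.4 in pwr-2 libraries. The 3 groups did not overlap in this sum.

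bHLH38, a partner of FIT, had 1.99, 3.46 and 3.54 CPM in WT, against 15.5, 14.4 and 15.4 in hda9-1 libraries and 4.43, 6.88 and 4.67 in pwr-2 libraries. Every hda9-1 library lay above every pwr-2 library, and these above every WT library. The log2 fold change against WT was 2.33 (SE 0.22), a 5.04-fold difference, in hda9-1 and 0.84 (SE 0.24), 1.79-fold, in pwr-2. Of its exon bases, 35.7% are shared with PIP5K4 (AT3G56960) on the opposite strand, and whether the counting used strand is not given in the sources used here. PIP5K4 had lower counts in the mutants, with log2 fold changes of -0.66 (SE 0.25) and -1.33 (SE 0.26), opposite in sign to those of bHLH38.

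bHLH39, the neighbour of bHLH38 and likewise a partner of FIT, had 1.14, 1.64 and 4.49 CPM in WT, against 11.9, 12.2 and 12.3 in hda9-1 libraries and 5.54, 4.08 and 4.21 in pwr-2 libraries. The hda9-1 libraries stood well above the others, while replicate 3 of WT lay among the pwr-2 libraries. The log2 fold change was 2.38 (SE 0.34), 5.22-fold, in hda9-1 and 0.99 (SE 0.37), 1.98-fold, in pwr-2. Without replicate 3 of WT the value for pwr-2 was 1.71 and passed the threshold, which it missed with all libraries.

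bHLH100 had 4.45, 7.70 and 9.45 CPM in WT, against 26.7, 26.3 and 29.8 in hda9-1 libraries and 9.36, 11.7 and 13.4 in pwr-2 libraries. The lowest pwr-2 library lay just under the highest WT library, and hda9-1 stood apart from both. The log2 fold change was 1.95 (SE 0.20) in hda9-1 and 0.70 (SE 0.22) in pwr-2.

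bHLH101, the least similar in sequence, had 7.86, 11.3 and 11.1 CPM in WT, against 25.7, 24.3 and 27.9 in hda9-1 libraries and 14.9, 17.1 and 17.1 in pwr-2 libraries. The 3 groups did not overlap. Its log2 fold change of 1.36 (SE 0.13) in hda9-1 was the smallest of the 4, and in pwr-2 it was 0.70 (SE 0.14). It shares 7.3% of its exon bases with GLU1 on the opposite strand, whose log2 fold changes were 0.11 (SE 0.11) and 0.16 (SE 0.11).

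In the coding sequence, bHLH38 and bHLH39 were identical at 84.8% of aligned bases, bHLH100 matched them at 73.8% and 74.9%, and bHLH101 matched the other 3 at 58.2% to 58.5%. The longest identical exon stretch between any pair was 34 bases. Among all 20171 genes tested, 28 had a larger log2 fold change in hda9-1 than bHLH39, 31 than bHLH38, 52 than bHLH100 and 149 than bHLH101.

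**Figure D2:**
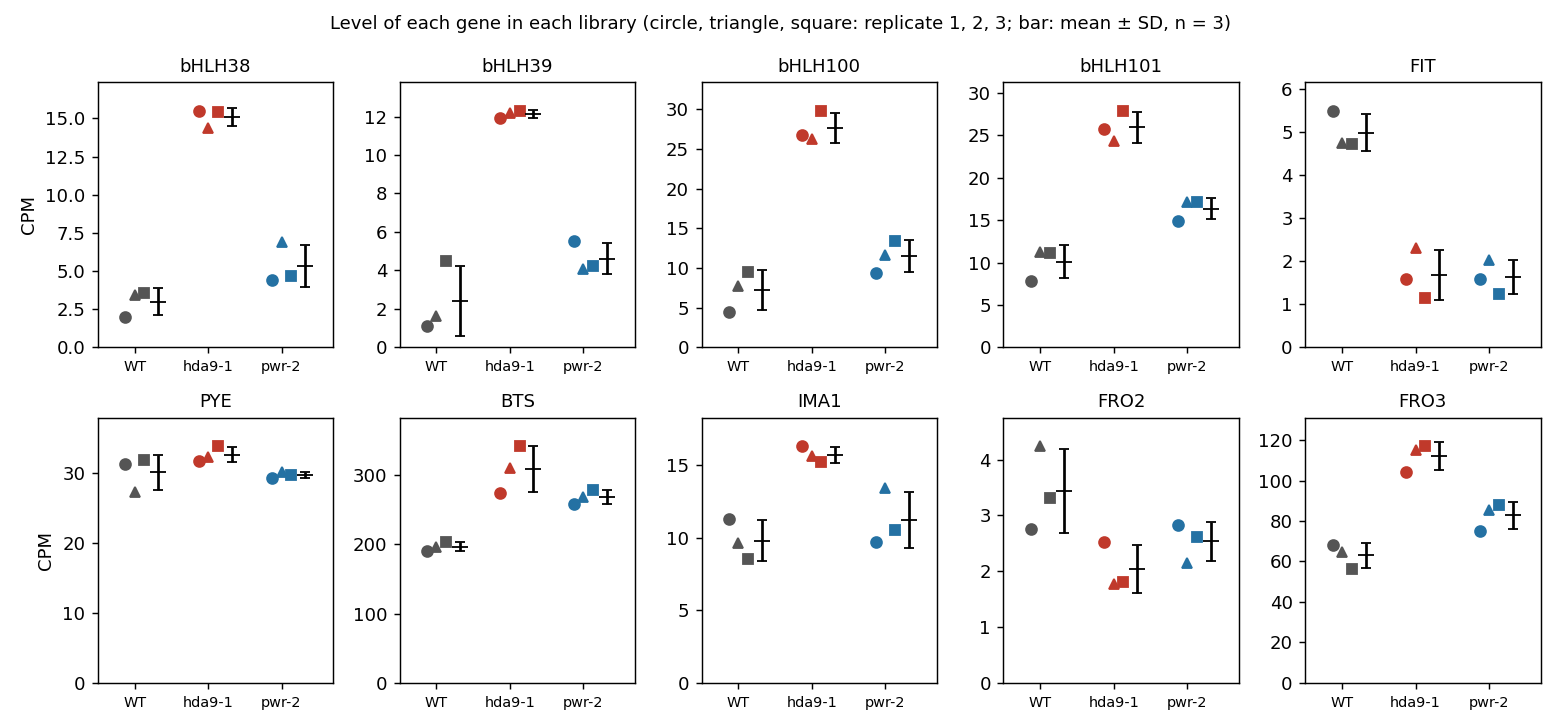
CPM of each of the 10 genes in each library, 1 panel a gene with its own axis from 0, with WT in grey, hda9-1 in red and pwr-2 in blue, and black bars for the mean ± SD of 3 libraries. The hda9-1 libraries are highest for the 4 subgroup Ib genes, at 77.1 to 85.4 CPM summed against 15.4 to 28.6 in WT, whereas FIT is lower in both mutants and PYE overlaps between all groups but hda9-1 and pwr-2.

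FIT went the other way. It had 5.50, 4.76 and 4.72 CPM in WT, against 1.58, 2.32 and 1.15 in hda9-1 libraries and 1.60, 2.04 and 1.25 in pwr-2 libraries, from 40 to 58 reads in a WT library and 7 to 21 in a mutant library. All 6 mutant libraries lay under all WT libraries, and the mutants overlapped each other. The log2 fold change was -1.52 (SE 0.26) in hda9-1 and -1.60 (SE 0.26) in pwr-2, so WT was 2.88-fold and 3.03-fold higher. Of the genes tested, 249 had a smaller log2 fold change than FIT in hda9-1 and 209 in pwr-2.

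FIT is made in roots, and most of the listed markers of root tissue had few counts in these whole seedlings. Of 20 root markers, 14 had under 100 counts in every library. The summed level of these 14 was 15.1 to 23.6 CPM in WT, 11.8 to 18.6 in hda9-1 and 12.1 to 13.7 in pwr-2, and that of all 20 was 566 to 576, 583 to 613 and 579 to 595 CPM. The root hair markers RHD6, EXPA7 and PRP1 were at 0 in most libraries, while COBL9 had 3 to 12 and PRP3 1 to 12 counts a library. GL2, PHO1, SCR, SHR, BGLU23 and NAI2, of the same list, had group means of 41.3 to 208 CPM and made up most of the sum of all 20. That sum therefore says little of the other 14 markers. Their summed level had a mean of 19.7 CPM in WT, 14.6 in hda9-1 and 12.7 in pwr-2. How far each listed marker is restricted to roots was not tested. Of 12 root markers tested by edgeR, 1 rose and 2 fell in hda9-1, where 17.6% and 16.6% of all tested genes did. They were GL2 by 0.16 (adjusted p = 0.0328), NRT2.1 by -2.23 (SE 0.57, adjusted p = 0.0111) and SKOR by -0.76 (SE 0.22, adjusted p = 0.0177). In pwr-2, 1 rose, PHO1 by 0.18 (adjusted p = 0.0299), where 16.0% of all tested genes did. Of the falls in pwr-2, 0 passed the adjusted threshold in edgeR or DESeq2, with 4 at an unadjusted p under 0.05. By edgeR, 15.3% of all tested genes fell there. DESeq2 called 0 root markers higher in either mutant, so the calls of GL2 and PHO1 were lost there, and 2 lower in hda9-1. The part of root content in the values of FIT was not tested. In whole seedlings, fewer cells of a type and less RNA per cell cannot be told apart.

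BTS and PYE both encode proteins that hold the iron response back. BTS had 190, 197 and 203 CPM in WT, against 275, 311 and 342 in hda9-1 libraries and 259, 269 and 279 in pwr-2 libraries. Both mutants lay above WT in every library, by log2 fold changes of 0.65 (SE 0.08) for hda9-1 and 0.45 (SE 0.08) for pwr-2. PYE had 31.3, 27.3 and 31.9 CPM in WT, against 31.8, 32.4 and 33.9 in hda9-1 libraries and 29.4, 30.2 and 29.7 in pwr-2 libraries. Its log2 fold changes were 0.12 (SE 0.07) and -0.01 (SE 0.07), and both mutants overlapped WT.

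IMA1 had 11.3, 9.60 and 8.50 CPM in WT, against 16.3, 15.6 and 15.2 in hda9-1 libraries and 9.72, 13.4 and 10.5 in pwr-2 libraries. Its hda9-1 libraries lay above all WT libraries, with a log2 fold change of 0.68 (SE 0.14), and its pwr-2 libraries overlapped WT, at 0.19 (SE 0.15). IMA1 and IMA2 lie 1876 bases apart, their coding sequences were identical at 88.9% of bases and their exons share a run of 59 bases, so reads of the one may have been counted for the other.

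The 2 reductase genes differed in direction. FRO3 had 68.2, 64.9 and 56.2 CPM in WT, against 104, 115 and 117 in hda9-1 libraries and 75.2, 85.3 and 88.0 in pwr-2 libraries, and the 3 groups did not overlap. Its log2 fold change was 0.82 (SE 0.08) in hda9-1 and 0.39 (SE 0.08) in pwr-2. FRO2, which FIT activates in roots, was low, with 2.75, 4.24 and 3.31 CPM in WT, against 2.53, 1.77 and 1.80 in hda9-1 libraries and 2.83, 2.15 and 2.62 in pwr-2 libraries. Its log2 fold change was -0.74 (SE 0.26) in hda9-1, where it lay under WT in all libraries, and -0.45 (SE 0.25) in pwr-2, where it overlapped WT. The call in hda9-1 was lost in 12 of 17 other settings, among them leaving out replicate 2 or 3 of WT (-0.55 and -0.77), replicate 2 or 3 of hda9-1 (-0.64 and -0.67), or replicate 1, 2 or 3 of pwr-2 (-0.74 each), and the fit with the replicate numbers as a block over all libraries (-0.74). It was kept in the block over the WT and hda9-1 libraries alone.

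**Figure D3:**
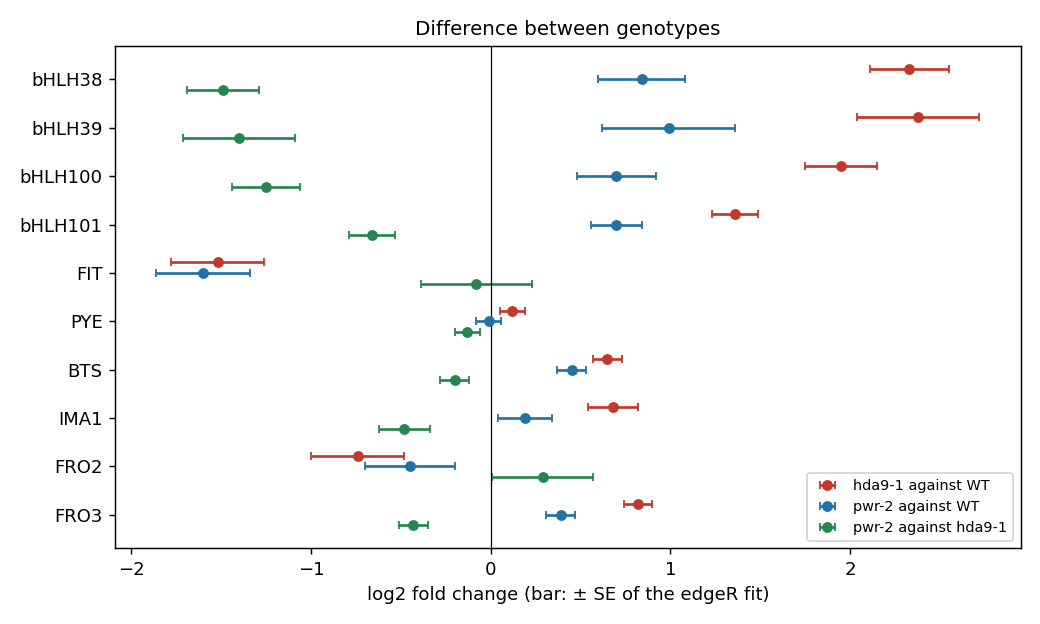
Log2 fold change of each of the 10 genes, with bars of 1 SE from the edgeR fit, for hda9-1 against WT (red), pwr-2 against WT (blue) and pwr-2 against hda9-1 (green). The subgroup Ib genes run from 1.36 to 2.38 in hda9-1 and from 0.70 to 0.99 in pwr-2, and FIT lies at -1.52 and -1.60.

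By the edgeR quasi-likelihood test over all genes, with a Benjamini-Hochberg adjusted p under 0.05 as the threshold for a call, 7 of the 10 genes were called higher in hda9-1 than in WT, where 17.6% of all tested genes were, and 2 were called lower, where 16.6% of all were. In pwr-2, 5 were called higher, against 16.0% of all genes, and 1 lower, against 15.3%. Nothing is read from these counts, since the genes were chosen with these differences known. The median log2 fold change of the 10 genes was 0.75 in hda9-1 and 0.42 in pwr-2, beside 0.00 and -0.01 over all genes. With upper-quartile factors, 32.9% of the calls in hda9-1 and 32.6% in pwr-2 were higher, against 51.6% and 51.1% here. Both comparisons share the WT libraries. In pwr-2, bHLH38 and bHLH100 were no longer called without replicate 1 of WT (log2 fold changes of 0.61 and 0.44) or without replicate 2 of pwr-2 (0.61 and 0.68), which left 3 genes called higher. bHLH100 was also not called without replicate 2 of WT (0.76) or replicate 3 of pwr-2 (0.57).

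Set against each other, the mutants differed most, among the 10 genes, in those of subgroup Ib. Levels in pwr-2 were lower than in hda9-1 by a log2 fold change of -1.49 (SE 0.20) for bHLH38, -1.40 (SE 0.31) for bHLH39, -1.25 (SE 0.19) for bHLH100 and -0.66 (SE 0.13) for bHLH101, with no overlap of the libraries in any of them. FRO3 differed by -0.43 (SE 0.08), IMA1 by -0.48 (SE 0.14) and PYE by -0.13 (SE 0.07), also without overlap. BTS at -0.20 (SE 0.08), FIT at -0.08 (SE 0.31) and FRO2 at 0.29 (SE 0.28) overlapped between the mutants. How many of all genes showed no overlap was not counted, so nothing is read from the separations here or above. Of the 10 genes, 4 were called lower in pwr-2, bHLH38, bHLH100, bHLH101 and FRO3, where 0.109% of all genes were, and 0 were called higher by edgeR, where 0.312% were, with 0 also at an unadjusted p under 0.05 and 0 by DESeq2. Nothing is read from these counts of calls either, since the genes were chosen with these differences known. Of these calls, leaving out 1 library ended several. At the adjusted threshold 0 of the 10 genes were called by edgeR without replicate 1 or 2 of hda9-1 or replicate 1 of pwr-2, 1 without replicate 3 of hda9-1, and 2 without replicate 2 of WT, while the log2 fold change of bHLH38 ran from -1.72 to -1.38 over all settings. Without replicate 2 of pwr-2, bHLH38 alone kept its call.

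Per kilobase of exon, BTS had the highest mean of the 10 transcripts and FRO2 the lowest in each genotype. In WT the mean was 43.7 ± 1.38 CPM per kb for BTS, 22.7 ± 2.23 for FRO3, 21.8 ± 1.78 for PYE, 12.6 ± 1.79 for IMA1, 9.32 ± 1.79 for bHLH101 and 6.22 ± 2.19 for bHLH100 (SD, n = 3). Below these came FIT at 3.62 ± 0.316, bHLH38 at 2.77 ± 0.807, bHLH39 at 1.99 ± 1.49 and FRO2 at 1.20 ± 0.264 CPM per kb (SD, n = 3). The ranges of FRO3 and PYE, of bHLH101 and bHLH100, of bHLH100 and FIT, of FIT and bHLH39, of bHLH38 and bHLH39, and of bHLH39 and FRO2 overlapped. In hda9-1 the subgroup Ib genes moved up the order: bHLH101 at 24.0 ± 1.66 and bHLH100 at 23.9 ± 1.66 CPM per kb overlapped PYE at 23.6 ± 0.795, and bHLH38 at 13.9 ± 0.579 and bHLH39 at 9.97 ± 0.164 stood above FIT at 1.22 ± 0.430 (SD, n = 3). In pwr-2, bHLH38 at 4.92 ± 1.25 and bHLH39 at 3.80 ± 0.663 CPM per kb also stood above FIT at 1.18 ± 0.287 (SD, n = 3). The ranges of FIT and FRO2 overlapped in both mutants.

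**Figure D4:**
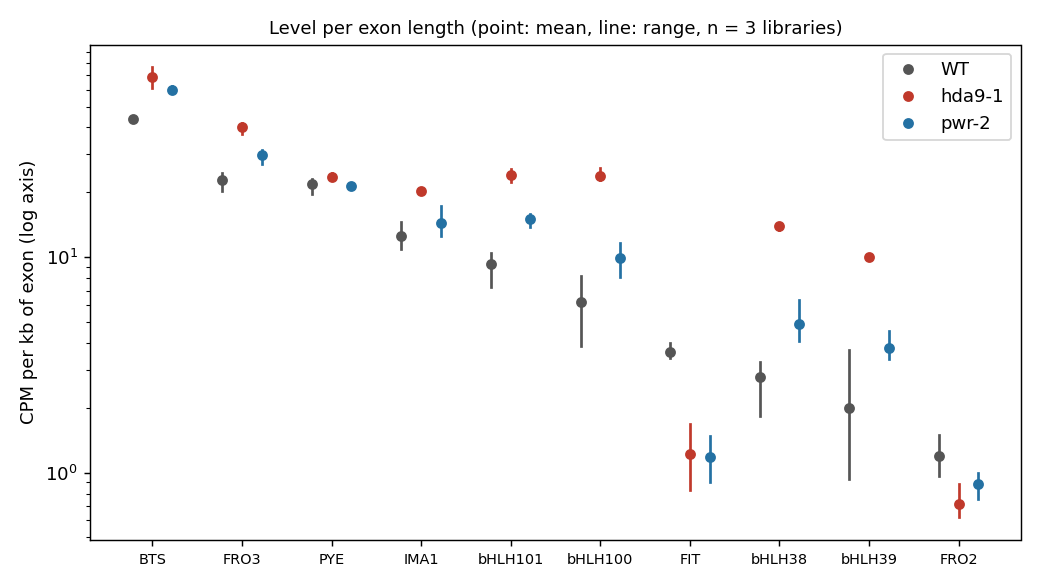
Mean level of each of the 10 genes in CPM per kb of exon (log axis), in the order of WT from BTS to FRO2, with lines for the range of 3 libraries. In WT, FIT at 3.62 CPM per kb has a mean above those of bHLH38 and bHLH39, though its range overlaps that of bHLH39, and in both mutants it lies under them.

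Around these 10 genes, 52 other iron genes were listed by role, of which 49 were in the table and 38 had counts enough to be tested. In hda9-1, 10 rose and 12 fell, where 17.6% and 16.6% of all tested genes did, with a median log2 fold change of 0.02, and in pwr-2, 9 rose and 7 fell, where 16.0% and 15.3% did, with a median of -0.06, beside 0.00 and -0.01 over all genes.

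Of the 5 upstream bHLH genes, URI rose in both mutants, by 0.59 (SE 0.06, edgeR adjusted p = 3.23e-05) in hda9-1 and 0.39 (SE 0.06, adjusted p = 0.000746) in pwr-2. ILR3 rose by 0.26 (SE 0.07, adjusted p = 0.00994) and 0.25 (SE 0.07, adjusted p = 0.0159). The ILR3 call in pwr-2 was lost without replicate 1 of WT (adjusted p = 0.0529), replicate 2 of WT (0.0630) or replicate 1 of pwr-2 (0.0674). bHLH34 fell in hda9-1 by -0.45 (SE 0.11, adjusted p = 0.00748), and had -0.26 (SE 0.10, adjusted p = 0.0698) in pwr-2, where it was called without replicate 3 of hda9-1 (0.0385). bHLH104 and bHLH115 were not called in either mutant.

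Among genes whose products act on or beside FIT, 6 were tested. ZAT12, a zinc finger protein that binds FIT and restrains it, rose in pwr-2 by 1.52 (SE 0.27, adjusted p = 0.00188). In hda9-1 it had 0.58 (SE 0.29, adjusted p = 0.146), which was 1.15 without replicate 3 of WT (adjusted p = 0.000205) and 0.66 with the replicate pairing of WT and hda9-1 as a block (adjusted p = 0.0144). CIPK11, a kinase that acts on FIT, rose in pwr-2 by 0.52 (SE 0.10, adjusted p = 0.00337), but 98.2% of its exon bases are shared with an antisense RNA. In hda9-1 it had 0.27 (adjusted p = 0.0652), which passed the threshold without replicate 3 of WT (0.36, adjusted p = 0.0281) and in that block (0.28, adjusted p = 0.0178). EIN3, an ethylene factor, rose by 0.20 in hda9-1 (SE 0.07, adjusted p = 0.0353), a call lost when any of 6 libraries was left out, replicates 1 to 3 of WT (adjusted p of 0.0885, 0.0553 and 0.0715), replicates 2 and 3 of hda9-1 (0.0757 and 0.0552) or replicate 2 of pwr-2 (0.0519). BTSL2, which encodes a ligase that acts on FIT, fell in both mutants, by -0.52 (SE 0.12, adjusted p = 0.00749) and -0.59 (SE 0.12, adjusted p = 0.00470), while its relative BTSL1 had 0.26 (SE 0.25, adjusted p = 0.453) and -0.15 (SE 0.26, adjusted p = 0.683).

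Both measured peptide genes related to IMA1 rose in hda9-1. IMA2 rose by 0.64 (SE 0.14, adjusted p = 0.00463) and IMA3 by 0.34 (SE 0.10, adjusted p = 0.0179), against 0.14 (SE 0.14, adjusted p = 0.488) and -0.16 (SE 0.10, adjusted p = 0.237) in pwr-2. The IMA3 call was lost without replicate 2 of WT (adjusted p = 0.0751) or replicate 3 of WT (0.0604). Of the exon bases of IMA3, 20.5% are shared with AT2G30760 and AT2G30770 on the opposite strand. Between the mutants IMA2 differed by -0.51 (SE 0.14, adjusted p = 0.145) and IMA3 by -0.50 (adjusted p = 0.0543), and IMA3 was called without replicate 1 of WT (adjusted p = 0.0494) or replicate 3 of WT (0.0471). IMA4, IMA5 and IMA6 were not analysed here.

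Among the other reductases, FRO4 rose in both mutants, by 0.45 (SE 0.13, adjusted p = 0.0168) and 0.54 (SE 0.12, adjusted p = 0.00771). In hda9-1 this call was lost without replicate 1 of WT (adjusted p = 0.0782) or replicate 2 of hda9-1 (0.0793). FRO7, the reductase of the chloroplast, fell in hda9-1 by -0.32 (SE 0.06, adjusted p = 0.00248) and had 0.11 in pwr-2 (SE 0.06, adjusted p = 0.200). It was the only one of the 38 genes called between the mutants, higher in pwr-2 by 0.42 (SE 0.06, adjusted p = 0.0204), and the call was lost without replicate 1 or 2 of hda9-1 (adjusted p of 0.0751 and 0.0827) or replicate 1 or 2 of pwr-2 (0.130 and 0.126). FRO1, the neighbour of FRO2, had 0 to 5 counts a library and was not tested.

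Of 6 genes of iron uptake, 3 were tested, and IRT1, IRT2 and IREG2 had too few counts. IRT1 had 25 counts in replicate 1 of hda9-1, 2 in replicate 2 of pwr-2 and 0 in the other 7 libraries, where 3 counts, the limit that a count of 0 allows, correspond to 0.269 to 0.465 CPM. NRAMP1, a manganese and iron transporter, fell in both mutants, by -0.18 (SE 0.06, adjusted p = 0.0248) and -0.21 (SE 0.06, adjusted p = 0.0145). In hda9-1 the call was lost without replicate 1 of WT (adjusted p = 0.0530) or replicate 1 or 2 of hda9-1 (0.0708 and 0.0733). DESeq2 called NRAMP1 in neither mutant (adjusted p of 0.11 and 0.0592). For the coumarins that roots secrete to mobilise iron, the synthesis gene F6'H1 (F6H1 in the annotation) fell by -1.45 (SE 0.42, adjusted p = 0.0207) in hda9-1 and -1.65 (SE 0.43, adjusted p = 0.0133) in pwr-2. These calls were lost without replicate 3 of WT (adjusted p = 0.0736) or replicate 2 of hda9-1 (0.0610) in the first and without replicate 1 of pwr-2 (0.0560) in the second. F6'H1 counts were 37, 45 and 55 in WT, against 24, 15 and 3 in hda9-1 and 6, 15 and 17 in pwr-2. The regulator MYB10 fell in pwr-2 by -1.30 (SE 0.41, adjusted p = 0.0321), a call lost without replicate 1, 2 or 3 of WT (adjusted p of 0.0818, 0.0880 and 0.0538) or replicate 1 or 2 of pwr-2 (0.101 and 0.117). In hda9-1 MYB10 had -1.05 (adjusted p = 0.0632), which was -1.86 without replicate 1 of hda9-1 (adjusted p = 0.00525) and -1.09 in the block of paired replicates (adjusted p = 0.0231). MYB10 counts were 28, 32 and 21 in WT, against 21, 8 and 3 in hda9-1 and 7, 8 and 13 in pwr-2. Of the exon bases of MYB10, 26.0% are shared with AT3G12810 on the opposite strand. BGLU42, a glucosidase that frees coumarins, fell in hda9-1 by -0.22 (SE 0.05, adjusted p = 0.00579). The values of the root markers are given with those of FIT, and the part of root content in these genes was not tested.

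Of 11 tested genes of iron movement and storage, 4 rose and 6 fell in hda9-1, beside 17.6% and 16.6% of all tested genes, and 4 rose and 3 fell in pwr-2, beside 16.0% and 15.3%. Ferritins store iron, and each of the 3 ferritin genes on the list, FER1, FER3 and FER4, fell in hda9-1. FER4 had 58.2, 59.2 and 63.9 CPM in WT, against 34.5, 33.1 and 37.7 in hda9-1 libraries and 45.4, 42.2 and 44.2 in pwr-2 libraries, and its log2 fold changes were -0.79 (SE 0.06, adjusted p = 6.03e-06) and -0.46 (SE 0.06, adjusted p = 0.000267). FER3 fell by -0.37 in each (SE 0.05, adjusted p = 0.000160 and 0.000220). FER1, named here after its values were seen, fell by -0.62 in hda9-1 (SE 0.10, adjusted p = 0.000644) and had -0.19 in pwr-2 (SE 0.09, adjusted p = 0.142), or -0.33 without replicate 1 of pwr-2 (adjusted p = 0.00637). OPT3, a phloem transporter needed for iron signals from shoot to root, rose by 0.40 (SE 0.08, adjusted p = 0.00187) and 0.31 (SE 0.08, adjusted p = 0.00885), and ORG1 rose by 0.61 (SE 0.07, adjusted p = 9.53e-05) and 0.29 (SE 0.07, adjusted p = 0.0119).

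PYE binds the genes of FRO3, ZIF1 and NAS4 in roots, and these did not move in 1 direction. ZIF1, a vacuolar transporter named after its values were seen, as was NAS4, rose by 0.47 (SE 0.06, adjusted p = 0.000163) and 0.21 (SE 0.06, adjusted p = 0.0202), while NAS4, a nicotianamine synthase gene, fell by -0.29 (SE 0.07, adjusted p = 0.00988) and -0.27 (SE 0.07, adjusted p = 0.0161). In pwr-2 the ZIF1 call was lost without replicate 1 or 2 of WT (adjusted p of 0.0502 and 0.0704) or replicate 2 of pwr-2 (0.0850), and the NAS4 call without replicate 1 of WT (0.0722) or replicate 3 of pwr-2 (0.0586). Loess offsets in edgeR also ended both calls in pwr-2 (adjusted p of 0.123 for ZIF1 and 0.0508 for NAS4), and DESeq2 ended that of NAS4 (0.0616).

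**Figure D5:**
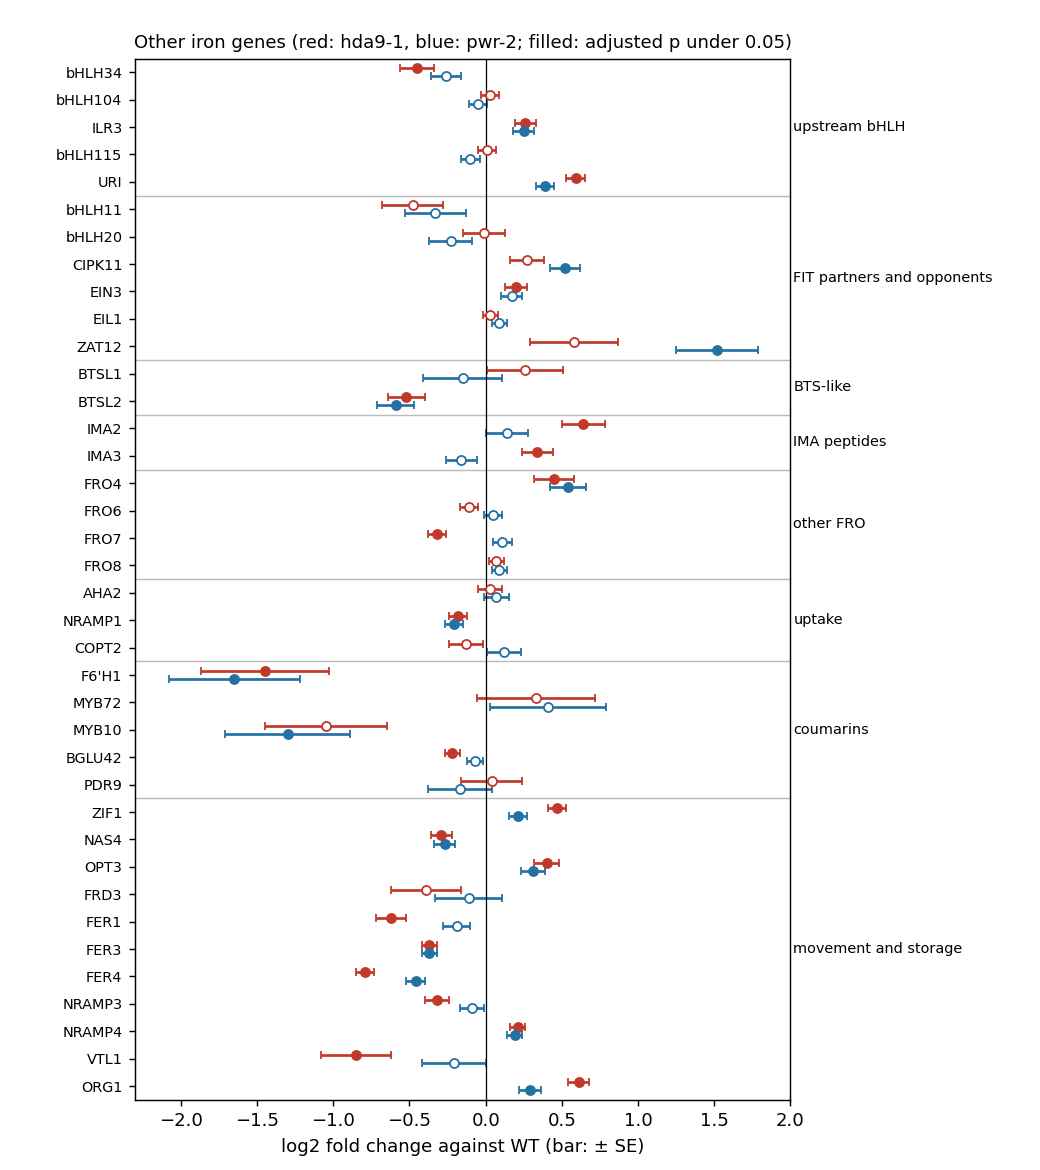
Log2 fold change against WT, with bars of 1 SE, of the 38 tested iron genes outside the 10, grouped by role, for hda9-1 (red) and pwr-2 (blue), with filled points for an adjusted p under 0.05. Ferritins lie left of 0, with FER4 at -0.79 and -0.46, and IMA2 and IMA3 are filled for hda9-1 and open for pwr-2.

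The 5 genes whose levels ran most like those of the subgroup Ib genes over the 9 libraries, by Pearson correlation with their mean standardised log2 CPM among 19144 genes, were iqd9 (AT2G33990, r = 0.980), MCCA (AT1G03090, 0.977), ADF9 (AT4G34970, 0.972), AT2G15960 (0.971) and ERD5 (AT3G30775, 0.966). The libraries fall into the 3 genotypes, so r mostly describes differences between them and carries no p. MCCA, a subunit of methylcrotonyl-CoA carboxylase in leucine breakdown, had 71.1 ± 5.28 CPM in WT, 110 ± 4.39 in hda9-1 and 91.7 ± 1.65 in pwr-2 (SD, n = 3). ERD5, a proline dehydrogenase gene, had 58.6 ± 7.83, 106 ± 11.6 and 79.0 ± 9.19 CPM (SD, n = 3).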

How the data were processed

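The authors deposited raw read counts for each gene and library, as whole numbers without normalization. HISAT2 and the TAIR10 genome are named per the submitters' processing notes, and libraries were stranded and made with dUTP, per the labels' protocols; how reads were counted, whether by strand, and how duplicates were handled are not given in the sources used here. Counts of overlapping or near-identical genes are uncertain for that reason.

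Of the 29420 genes, 20171 passed filterByExpr. They were tested with edgeR 4.0.16 (quasi-likelihood, TMM factors, R 4.3.3) in 1 model of genotype over all 9 libraries, with Benjamini-Hochberg adjustment over every tested gene and a call at an adjusted p under 0.05. The SE was derived from the fold change and its F statistic. CPM use the TMM-scaled totals, and CPM per kb divide by the merged exon length. The log2 CPM of the likeness measure took a prior count of 2 and genes of a mean of at least 1. A count floor of 3 and the total counts, 6450661 to 11150773, set the detection limits, which cover counting error only. The steps were tested on simulated data.

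The 10 genes and all lists (other iron genes, copper, root and shoot markers) were chosen with earlier results of these data known. Named by rule are the 10 genes, up to 3 called genes per role with the smallest adjusted p in each mutant, and IRT1, IMA2, IMA3, FRO1, BTSL1, BTSL2, ILR3 and URI whatever their p.

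Positions, exon lengths, sequences and names come from the RefSeq annotation of TAIR10.1. Names matched 28932 of the table's genes by locus, and all 10 genes matched. Motifs were searched on the letters of the window, and both CACGTG and CANNTG read the same on either strand.

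The labels number replicates 1 to 3 in each genotype. Deviations from the group means of same-numbered WT and hda9-1 libraries correlated at 0.359, 0.448 and 0.456, above the limit of 0.1 for a pairing, while those of WT and pwr-2 were -0.123, -0.0137 and -0.128, and those of hda9-1 and pwr-2 -0.221, -0.189 and -0.241. The pairing of WT with hda9-1 therefore comes from the data alone. Some libraries with unlike numbers also passed that limit. Replicates 2, 3 and 1 of pwr-2 had 0.169, 0.167 and 0.226 with replicates 1, 2 and 3 of WT. With replicates 1, 2 and 3 of hda9-1 they had 0.201, 0.231 and 0.226. The other pairs of unlike numbers ran from -0.53 to 0.196. The block over all libraries followed the numbers as given. Alternatives were size factors of DESeq2 1.42.0 within edgeR (RLE), upper-quartile factors, loess offsets, DESeq2's own test, no filter on low counts, only the groups compared, the replicate block, and leaving out each library.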

Additional observations from a re-analysis of the deposited data

How the results depend on the processing

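Of the 10 genes and the 38 other iron genes, no called log2 fold change changed sign under any alternative; the root, shoot and copper markers were not rerun gene by gene. For the 10 genes, 438 values kept their side of the threshold, 42 lost a call and 10 gained one, and for the other iron genes 1766 kept it, 55 lost it and 38 gained it. The other 2 were AHA2, not called, which turned sign and passed the threshold with loess offsets (0.03 to -0.14, adjusted p = 0.0146, in hda9-1 and 0.07 to -0.11, adjusted p = 0.0499, in pwr-2). In hda9-1 against WT, the 10 genes called lower went from 2 to 1, by the loss of FRO2, with loess offsets, with no low count filter, with the replicate block, with only the groups compared and with DESeq2, and were 1 to 2 when a library was left out. With the replicate block the other iron genes called were 23, and 25 in a block over the WT and hda9-1 libraries alone, added after seeing the data, against 22, and the pairing changed no call of the iron genes other than FRO2, CIPK11 (adjusted p = 0.0451 over all libraries), ZAT12 and MYB10. Over all genes, 6901 were called with the replicate block and 9472 in the block over WT and hda9-1 alone, against 6897. The gain in iron genes came with a gain over all genes. In pwr-2 against hda9-1 the replicate block ended the call of FRO3. In pwr-2 against WT, the other iron genes called lower were 4 with DESeq2 against 7. Leaving out a library gave 3 to 6 of the 10 genes higher and 3917 to 7581 genes called over all, against 6326. With loess offsets, no filter and DESeq2, bHLH39 passed the threshold. In pwr-2 against hda9-1, the other iron genes called were 3 with upper-quartile factors, 5 with loess offsets, 4 with no filter, 2 with only these groups and 5 with DESeq2, against 1, and 0 to 4 without a library; 2 were higher under each of these settings and 0 to 3 without a library, and 1, 3, 2, 0 and 3 were lower, against 0, and 0 to 1 without a library. The 10 genes called, all lower, were 0 to 5 without a library, against 4. All genes called were 158 with loess offsets, 179 with no filter and 184 with DESeq2, against 85, and 9 to 252 without a library. Loess offsets also ended the calls of EIN3 and F6'H1 in hda9-1 and of ILR3 and MYB10 in pwr-2. Upper-quartile factors ended those of EIN3 and IMA3 in hda9-1, and DESeq2 that of MYB10 in pwr-2. With only the groups compared, EIN3 lost its call in hda9-1. The cause of these changes was not tested. FIT, FRO2 and the subgroup Ib genes rest on 7 to 254 counts a library, which limits their precision. F6'H1 and MYB10 each went down to 3 counts, in replicate 3 of hda9-1, which limits theirs as well.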

Other observations

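Copper and iron responses share transporters, and 8 genes of the copper response were tested beside the iron genes. In each mutant 2 rose, where 17.6% of all tested genes did in hda9-1 and 16.0% in pwr-2, and 0 fell, where 16.6% and 15.3% did. In hda9-1 these were SPL7, the copper sensor factor, by 0.13 (SE 0.04, edgeR adjusted p = 0.0423) and CITF1, a bHLH factor of copper uptake, by 0.58 (SE 0.20, adjusted p = 0.0416). In pwr-2, SPL7 rose by 0.15 (SE 0.04, adjusted p = 0.0196) and the copper transporter COPT1 by 0.19 (SE 0.06, adjusted p = 0.0382). With DESeq2, 0 of the 8 were called in either mutant. CITF1 counts were 59, 60 and 48 for WT, against 99, 68 and 38 for hda9-1 and 33, 48 and 48 for pwr-2. Replicate 1 of hda9-1, which held the highest count of CITF1, also held 25 of the 27 counts of IRT1, all 4 counts of CYP82C4, a coumarin gene, and the single counts of IRT2 and IREG2. The shoot markers, 10 genes, gave 0 calls in hda9-1 by edgeR, with 4 at an unadjusted p under 0.05 and 3 called by DESeq2, and 1 in pwr-2, LHCB2.1, which rose by 0.19 (adjusted p = 0.0357). The shares of all tested genes given above for the copper genes also apply to these counts.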
